A study of Mus musculus with 6 samples.

Results

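The nonsense-mediated mRNA decay (NMD) factors described here are the 9 genes Upf1, Upf2, Upf3a, Upf3b, Smg1, Smg5, Smg6, Smg8 and Smg9, chosen by gene symbol, out of 26329 genes in the deposited table. All 9 were found there. The series holds 6 RNA sequencing libraries of mouse ovary kept in culture. The 3 Control libraries came from ovaries cultured with the solvent DMSO, and the 3 ISRIB libraries from ovaries cultured with ISRIB in DMSO, so both groups carried the solvent. ISRIB is a small molecule that binds eIF2B and restores translation initiation when eIF2 is phosphorylated in the integrated stress response (ISR). The study's title asks whether inhibiting the ISR activates primordial follicles through the mTOR pathway. The labels give no dose, culture time, strain or age for these libraries.

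NMD destroys mRNAs on which a ribosome stops too early. The helicase UPF1 is recruited to the terminating ribosome, UPF2 and UPF3 link it to exon junction complexes that remain downstream of the stop codon, and the kinase SMG1, held in check by SMG8 and SMG9, phosphorylates it. Phosphorylated UPF1 then draws in SMG6, an endonuclease, and adaptors such as SMG5, which lead to removal of the tail and the cap. Because NMD needs translation, phosphorylation of eIF2 is known to slow it, and mRNAs of stress genes such as Atf4 are among its substrates. Several NMD factor mRNAs are substrates as well.

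The values are FPKM, read fragments corrected for gene length and library size. Comparing levels between genes depends on the length used. The length implied by the values differed from that of the transcript with the longest coding sequence by unlike amounts. It was 5316 bases against 2242 for Smg9, and 3261 against 3218 for Smg8. Whole reads worked back from the FPKM added up to 34474821 to 38002135 per library, and a member was covered by 995 to 9651 reads in a library. Libraries of the same group correlated at a Pearson r of 0.987 to 0.9942 (log2 values), and those of different groups at 0.987 to 0.9937. Ovarian markers were present, with the granulosa factor Foxl2 at 137 to 163 FPKM. The zona pellucida gene Zp3 lay at 361 to 406 in Control and 413 to 466 in ISRIB. Cyp19a1 and Cyp17a1 of steroid synthesis and Dmrt1, a testis gene, had a mean under 1. Of 6 oocyte markers, 4 were higher and 2 lower in ISRIB, with sums of 618 to 692 FPKM in Control and 683 to 760 in ISRIB. Zp3 made up most of these sums. Kit, 1 of the 2 lower markers, had 87.8, 94.0 and 92.2 FPKM in Control and 78.7, 82.6 and 68.6 in ISRIB. Of 4 granulosa markers with a mean of at least 1, 3 were higher and 1 lower. The 4 endothelial markers were lower in ISRIB, with a summed level of 97.2 to 105 FPKM in Control and 77.9 to 89.1 in ISRIB, none of them at 0. The part of these marker differences in the results below was not tested. In bulk tissue, fewer cells of a type and less RNA per cell cannot be told apart.

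None of the 9 NMD factors passed the test between ISRIB and Control. Their mRNA levels were close in both groups, with log2 fold changes from −0.16 for Smg8 to 0.08 for Upf3b on the log2(FPKM + 0.5) scale (ISRIB minus Control) and a median of −0.07, where the median of all 12922 genes tested was 0.01. Of the 9, 7 were lower and 2 higher in ISRIB, against 48.2% of all genes tested with a negative value. After TPM rescaling, quantile normalization or gene length correction, 8 of the 9 were lower. Of all 12922 genes tested, 8268, 6745 and 6637 were lower under these settings, in this order. The threshold was a Benjamini-Hochberg adjusted p under 0.05 in limma, which 0 members and 0.0% of all genes tested passed. At an unadjusted p under 0.05 there was 1 member, Smg8, where 16.4% of genes tested fell under it in either direction (2125 genes). This count was 3 after TPM rescaling, 2 in voom, without the filter or without Control replicate 3, and 0 with the replicate number as a block or without Control replicate 2, ISRIB replicate 2 or ISRIB replicate 3. All 9 members passed the filter on low values, a mean of at least 1 FPKM. In voom, limma's method for counts, applied to the whole reads, 0 members and 0.929% of genes tested (120 genes) passed.

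**Figure D1:**
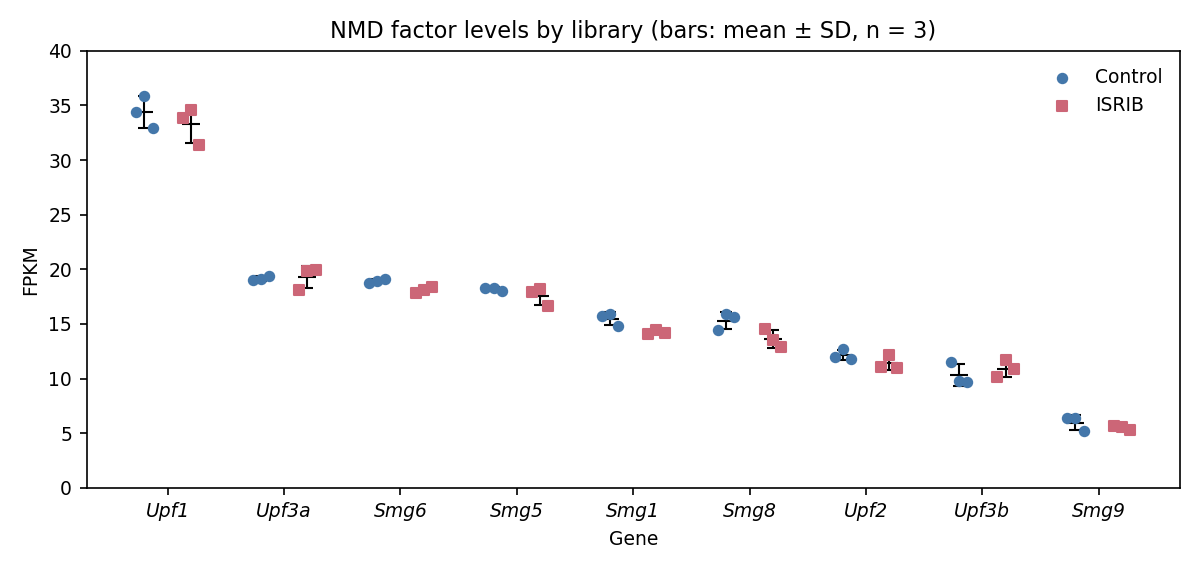
FPKM (y axis, linear from 0) of each NMD factor in every library, with genes on the x axis ordered by mean level; circles are Control libraries, squares ISRIB libraries, and bars mean ± SD (n = 3 each). Upf1 lay at 31.4 to 35.9 FPKM in all 6 libraries, above every other member, and Smg9 was lowest at 5.16 to 6.37.

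In FPKM, the levels formed a ladder in which the Upf1 mean was 5.91 times that of Smg9. Upf1 averaged 33.8 FPKM over the 6 libraries, a level above that of 84.3% of genes tested. Upf3a (19.2), Smg6 (18.5) and Smg5 (17.9) followed, and the ranges of neighbours among these 3 overlapped. Smg1 (14.8) and Smg8 (14.5) came next, with overlapping ranges, then Upf2 (11.8) and Upf3b (10.6), whose ranges also overlapped. Smg9 averaged 5.72 FPKM, higher than 32.7% of genes tested. The steps from Upf1 to Upf3a, Smg5 to Smg1, Smg8 to Upf2 and Upf3b to Smg9 had no overlap over the 6 libraries. This order is a description of per-length levels and was not tested. The order and the ratio of 5.91 rest on implied lengths, 5215 bases for Upf1 and 5316 for Smg9. Their transcripts with the longest coding sequence have 4618 and 2242 bases. Both ratio and order could differ with other lengths.

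Among the UPF genes, Upf1 codes for the RNA helicase at the center of the pathway (chromosome 8, 70331525 to 70353278, minus strand, GRCm38). It measured 34.4, 35.9 and 32.9 FPKM in Control and 33.8, 34.6 and 31.4 in ISRIB. The groups overlapped, and the lowest library of each group was replicate 3. The log2 fold change was −0.05 (SE 0.054, 95% interval −0.17 to 0.08, adjusted p = 0.698), an interval that runs from 0.887 to 1.05 times Control. Exons of Cers1 and Gdf1 overlap those of Upf1 on the other strand in GENCODE M21, and since the strand setting of the counting is not given, reads of these genes may not be told apart.

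Upf2, the bridge between UPF1 and UPF3 (chromosome 2, 5951469 to 6056703, plus strand), had 12.0, 12.7 and 11.8 FPKM in Control and 11.1, 12.2 and 11.0 in ISRIB. ISRIB replicate 2 lay within the Control range and the other two ISRIB libraries below it. Its log2 fold change was −0.09 (95% interval −0.23 to 0.05, adjusted p = 0.509).

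Upf3a and Upf3b are paralogs that compete for the same place on UPF2. UPF3B is the more active in decay, and UPF3A is weaker and has also been described as an antagonist. Upf3a (chromosome 8, 13785615 to 13799193, plus strand) had 19.0, 19.1 and 19.4 FPKM in Control and 18.1, 19.8 and 19.9 in ISRIB, so the ISRIB libraries lay on both sides of Control. Its log2 fold change was 0.01 (95% interval −0.11 to 0.13, adjusted p = 0.96), and the sign was negative after TPM rescaling (−0.05), quantile normalization (−0.00) and gene length correction (−0.02). The X-linked Upf3b (chromosome X, 37091678 to 37110322, minus strand) had 11.5, 9.82 and 9.67 FPKM in Control and 10.1, 11.7 and 10.9 in ISRIB. Control replicate 1 stood at the level of ISRIB, and the log2 fold change was 0.08 (95% interval −0.11 to 0.27, adjusted p = 0.668), 0.15 without that library and 0.03 without ISRIB replicate 2.

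In FPKM, Upf3a lay above Upf3b in every library, by 1.66, 1.94 and 2.0 times in Control and 1.79, 1.69 and 1.82 times in ISRIB. The size of this excess rests on the implied lengths, 2714 bases for Upf3a and 4499 for Upf3b. Their transcripts with the longest coding sequence have 2057 and 2344 bases. Before division by length the paralogs were closer, with 1767 to 2000 whole reads per library for Upf3a and 1636 to 1938 for Upf3b. The ratios could therefore differ with other lengths. The log2 ratio of Upf3b to Upf3a averaged −0.86 (SD 0.14, n = 3) in Control and −0.79 (SD 0.05, n = 3) in ISRIB. The ratios of the ISRIB libraries all lay inside the Control range. The difference of 0.07 had a two-sided exact permutation p = 0.5, where 3 against 3 libraries allow no p under 0.1.

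**Figure D2:**
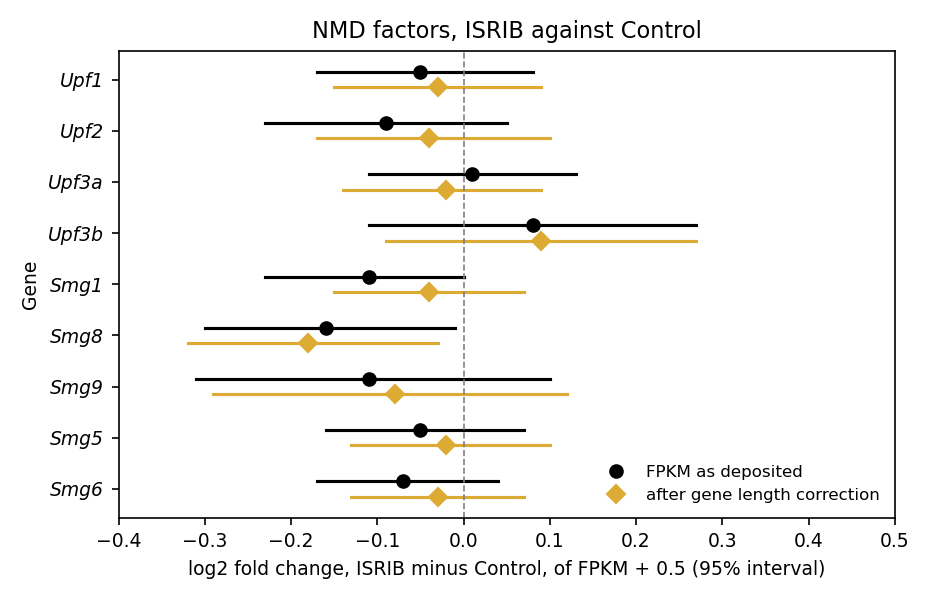
Log2 fold change of each NMD factor (x axis, ISRIB minus Control, on FPKM + 0.5) with its 95% interval from limma, for the deposited FPKM (circles) and after the trend with gene length was removed from each library (diamonds). The interval of Smg8 lies below 0 in both, and that of Smg1 moves from −0.23 to 0.0 before the correction to −0.15 to 0.07 after it.

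The 3 genes of the SMG1 kinase complex were lower in ISRIB by small steps that did not pass the test. Smg1, the kinase of UPF1 (chromosome 7, 118131308 to 118243670, minus strand, 63 exons), had 15.7, 15.9 and 14.8 FPKM in Control and 14.1, 14.4 and 14.2 in ISRIB. All ISRIB libraries were below all Control libraries. The ISRIB mean was 92.1% of Control, a log2 fold change of −0.11 (SE 0.0503, 95% interval −0.23 to 0.0, adjusted p = 0.312).

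Smg8, which inhibits the kinase (chromosome 11, 87077732 to 87086774, minus strand, 4 exons), had 14.4, 15.9 and 15.6 FPKM in Control and 14.5, 13.5 and 12.9 in ISRIB. Control replicate 1 and ISRIB replicate 1 met at about the same level, and the other ISRIB libraries lay below all Control libraries. The ISRIB mean was 89.2% of Control, a log2 fold change of −0.16 (SE 0.0629, 95% interval −0.3 to −0.01, unadjusted p = 0.035, adjusted p = 0.269). In limma the unadjusted p of Smg8 was 0.0649 with the replicate block and 0.0844 to 0.114 without Control replicate 2 or 3 or ISRIB replicate 2 or 3. Smg9, a GTPase-like partner that binds SMG8 (chromosome 7, 24399619 to 24422778, plus strand), had 6.36, 6.37 and 5.16 FPKM in Control and 5.63, 5.58 and 5.25 in ISRIB. Its groups overlapped because Control replicate 3 was the lowest of the 6 libraries. The log2 fold change of Smg9 was −0.11 (95% interval −0.31 to 0.1, adjusted p = 0.595), −0.20 without that library and −0.06 without Control replicate 1 or 2.

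The bases before the start sites of Smg1 and Smg8 are shown because both belong to one complex and had the smallest p values among the members. They are the 250 bases upstream in RefSeq (GRCm38.p6), 5′ to 3′ on the gene's strand, at chr7:118243638-118243887 (minus) for Smg1 and chr11:87086778-87087027 (minus) for Smg8. RefSeq and GENCODE place the Smg1 start differently, so this window overlaps the GENCODE gene, which reaches 118243670. Capitals mark CCAAT (the CCAAT box) on either strand and, in Smg8, CCGGAAG, the core of an ETS factor site.
Smg1: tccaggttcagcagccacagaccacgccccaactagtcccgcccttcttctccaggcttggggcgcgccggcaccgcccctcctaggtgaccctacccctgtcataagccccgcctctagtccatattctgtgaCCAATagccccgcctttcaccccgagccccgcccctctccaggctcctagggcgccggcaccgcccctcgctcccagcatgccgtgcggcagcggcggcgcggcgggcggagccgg
Smg8: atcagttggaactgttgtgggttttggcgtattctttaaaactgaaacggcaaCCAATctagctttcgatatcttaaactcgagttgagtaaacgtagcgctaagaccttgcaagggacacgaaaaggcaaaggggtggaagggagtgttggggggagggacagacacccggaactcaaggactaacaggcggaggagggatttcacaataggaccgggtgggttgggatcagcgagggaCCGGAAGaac
The ATF4 response element, searched as TGATGNAA on both strands, was in 0 of the 9 member promoters and in 3.45% of 32851 promoters of the same length. The cAMP response element TGACGTCA was in 0 of 9 and in 1.55% of all. CCAAT was in 4 of 9 (Smg1, Smg8, Upf3a and Upf3b) and in 33.85% of all, and CCGGAAG in 1 of 9 and in 6.91%. These windows held 12 to 41 CpG dinucleotides in the members, where the median of all promoters was 6. A match of letters is a description and no evidence of binding.

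Of the effectors that act on phosphorylated UPF1, Smg6, the endonuclease that cuts near the stop codon (chromosome 11, 74925823 to 75164448, plus strand), had 18.7, 18.9 and 19.1 FPKM in Control and 17.8, 18.1 and 18.4 in ISRIB. All ISRIB libraries were below all Control libraries, at 95.5% of the Control mean. The log2 fold change was −0.07 (SE 0.0437, 95% interval −0.17 to 0.04, adjusted p = 0.493). Exons of Srr and Gm12333 overlap those of Smg6 on the other strand. Smg5, an adaptor for decay enzymes (chromosome 3, 88336260 to 88362338, plus strand), had 18.3, 18.3 and 18.0 FPKM in Control and 17.9, 18.2 and 16.6 in ISRIB. Only ISRIB replicate 3 stood apart, and the log2 fold change was −0.05 (95% interval −0.16 to 0.07, adjusted p = 0.692), −0.01 without that library.

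Members whose 3 ISRIB libraries lay all below the 3 Control libraries were Smg1 and Smg6, 2 of 9, where 12.0% of genes tested did so. For all ISRIB above all Control the count was 0 of 9, where 10.8% of genes tested did so. ISRIB replicate 3 was the lowest of the 6 libraries for 4 members, ISRIB replicate 1 for 3, and Control replicate 2 the highest for 5. Over the 36 pairs of members, Pearson's r of log2 values across the 6 libraries ran from −0.76 (Upf3b with Smg8) to 0.87 (Upf1 with Smg5), with a median of 0.38. The counts of lowest and highest libraries and the correlations were not worked out over all genes tested. They are therefore not read as a property of the members. All these values share the same libraries and are a description.

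Of the 9 genes, 3 have a transcript that GENCODE M21 annotates as a substrate of NMD, Smg1, Smg5 and Smg6, as do 28.7% of 12171 protein-coding genes tested. The ends of these reading frames are shown because an early stop codon upstream of exon junctions is what NMD recognises. Each is the last 30 coding bases, 5′ to 3′, with the stop codon in capitals.
Smg1: atgacagagaccgaagactggctactgTAA
Smg5: gtggaagccatgtattgctacttgcgcTGA
Smg6: gatgatggagacattccctgcagtggcTGA
The last exon junction lies 10397 bases after the stop in the Smg1 transcript, 434 in that of Smg5 and 1379 in that of Smg6. The annotated coding lengths of these transcripts are 178 bases (Smg1), 541 (Smg5) and 1070 (Smg6), none a multiple of 3. Their reading frames are therefore incomplete in the annotation. In the transcripts with the longest coding sequence, the stop codon is in the last exon for 8 of the 9 members and 3 bases before the last junction for Upf1. Long 3′ untranslated regions also mark substrates. Those of the members had a median of 958 bases, against 945 over the genes tested, and that of Smg1, at 4233 bases, was longer than in 94.6% of them. The deposited values are per gene, so the share of these transcripts was not measured.

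**Figure D3:**
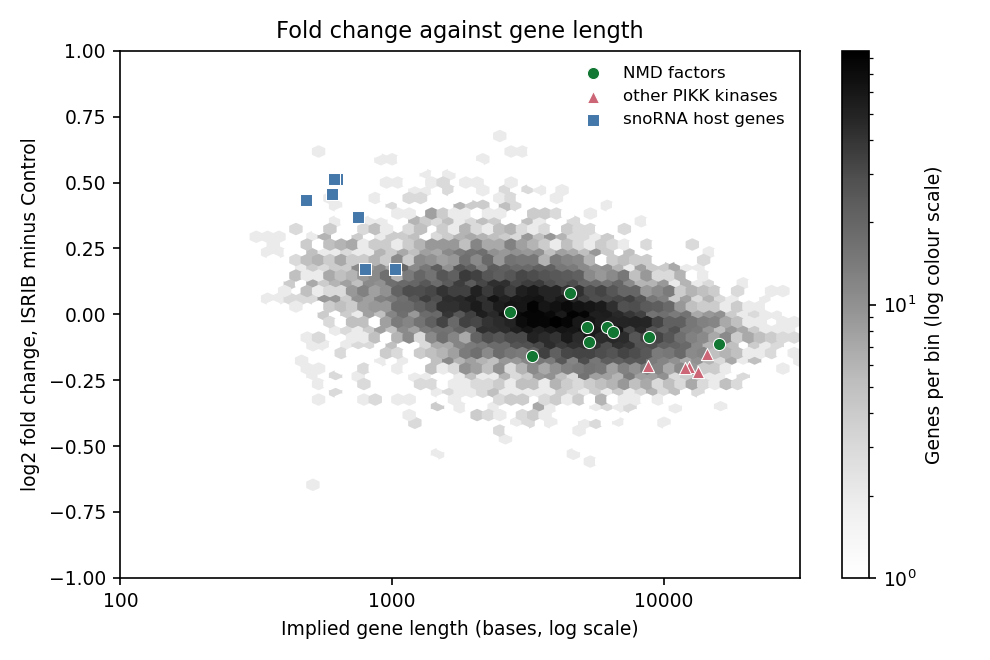
Log2 fold change (y axis, ISRIB minus Control) against the gene length implied by the FPKM (x axis, bases, log scale) for the genes tested, shaded by number of genes, with 47 genes outside the window; circles are the NMD factors, triangles the other kinases of the SMG1 family and squares the small nucleolar RNA host genes. Values go down with length, the 9 factors at 2714 to 15975 bases lie within the cloud, and the host genes stand at the short end.

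Fold change went down with gene length over all genes tested (Spearman rho −0.361 and Pearson r −0.318 across genes, which are not independent replicates). Smg1 is the longest member, with an implied length of 15975 bases, and Upf3a the shortest, with 2714. With this trend removed from each library, Smg1 stood at −0.04 (adjusted p = 0.776) and Smg6 at −0.03 (adjusted p = 0.806). Smg8, with a length of 3261 bases near the median of 3549, had −0.18 (95% interval −0.32 to −0.03, adjusted p = 0.311). The median of the 9 was then −0.03, with all genes at −0.0, and 8 of 9 were negative, against 6637 of the 12922 genes tested. TPM rescaling put the median of all genes tested at −0.05 and that of the members at −0.12.

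SMG1 belongs to the PI3K-related kinases (PIKK), large protein kinases that also include mTOR and the DNA damage kinases. The other 5 genes of that family, Mtor, Atm, Atr, Prkdc and Trrap, were all lower in ISRIB, with a median log2 fold change of −0.2 and all ISRIB libraries below all Control libraries in 5 of 5, where 12.0% of genes tested had this. None passed the test (adjusted p = 0.119 to 0.221). Atm, the kinase that senses DNA breaks, had 6.76, 7.17 and 6.5 FPKM in Control and 5.88, 5.95 and 5.73 in ISRIB (−0.2), and Trrap, a scaffold without kinase activity, 34.3, 33.4 and 33.0 and 30.1, 30.6 and 29.9 (−0.15). Prkdc, the kinase of end joining, had −0.22 and Mtor −0.2. These are long genes, with a median implied length of 12406 bases, and after the length correction their median was −0.14.

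The 10 cofactors of NMD and of kinase assembly had a median of −0.03, with 4 higher and 6 lower and 0 past the test. Nbas, which works with UPF1 in NMD at the endoplasmic reticulum, had 5.14, 5.78 and 5.29 FPKM in Control and 4.84, 4.54 and 4.47 in ISRIB. Its groups did not overlap, and the log2 fold change was −0.21 (95% interval −0.37 to −0.04, adjusted p = 0.23), −0.14 after length correction. Pnrc2, which joins UPF1 to the decapping enzyme, had 45.1, 43.2 and 46.6 FPKM in Control and 47.0, 49.3 and 49.5 in ISRIB (0.11, adjusted p = 0.291), again with no overlap. The helicase Mov10 (−0.06) and Ruvbl2 (0.09), an ATPase of kinase assembly, overlapped between groups.

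**Figure D4:**
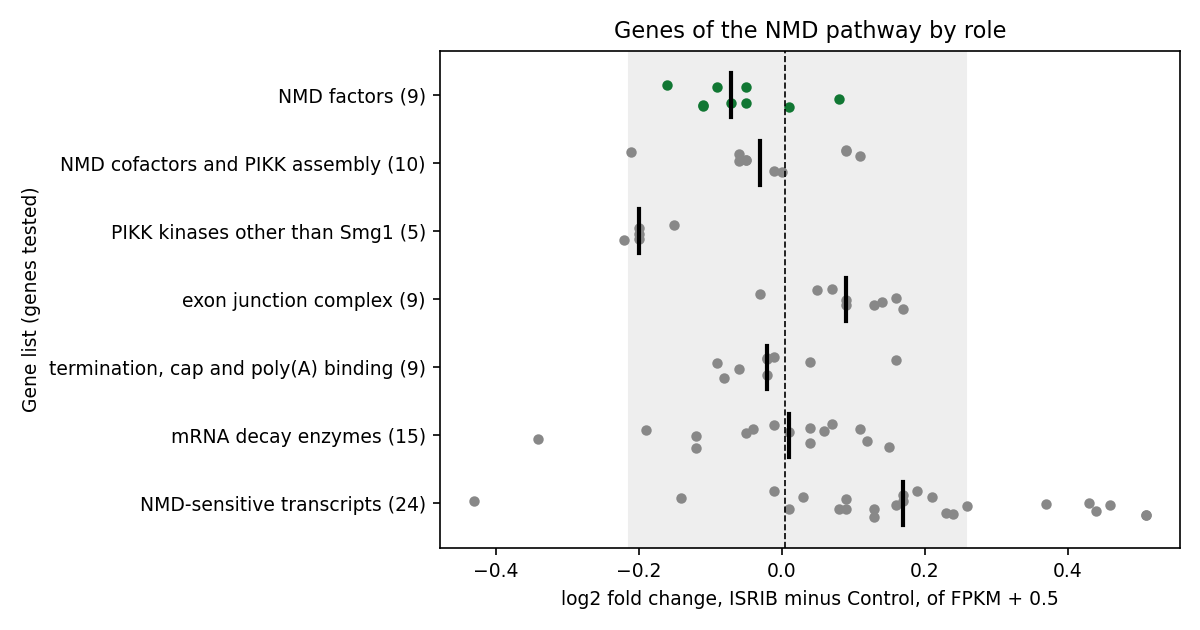
Log2 fold change (x axis, ISRIB minus Control, on FPKM + 0.5) of every tested gene in 7 lists of the NMD pathway (y axis, number of genes in parentheses); points are genes, short lines list medians, the dashed line the median of all genes tested and the grey band their 5th to 95th percentile (−0.21 to 0.26). The NMD factors lie inside the band, and genes of the list of NMD-sensitive transcripts reach 0.51.

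Exon junction complex genes, whose proteins mark spliced junctions for UPF3, had a median of 0.09, with 8 of 9 higher in ISRIB and 0 past the test. Of all genes tested, 51.8% were higher. Rbm8a, a core subunit, had 30.5, 32.9 and 31.9 FPKM in Control and 35.4, 35.0 and 34.6 in ISRIB, with no overlap (log2 fold change 0.14, adjusted p = 0.201). Pym1, which takes the complex off translated mRNA, had 0.16, and the peripheral subunits Sap18 and Acin1 0.13 and 0.07 (adjusted p = 0.271, 0.278 and 0.399). TPM rescaling put the list's median at 0.04, with 7 of 9 higher. The median implied length of the list was 2323 bases, and after length correction its median was 0.08, with 6 of 9 higher.

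The 9 genes of translation termination and of cap and tail binding had a median of −0.02, 2 higher and 7 lower. Ncbp2, the small cap-binding subunit, had 27.2, 25.0 and 28.5 FPKM in Control and 30.6, 30.6 and 29.4 in ISRIB, with no overlap (0.16, adjusted p = 0.218). It was the 1 gene of 9 whose lowest ISRIB library was above the highest Control library, a share close to the 10.8% of genes tested. Stau2, an RNA-binding relative of the decay factor STAU1, had −0.08. The release factor gene Gspt2 had −0.09, and 0.04 without Control replicate 1. The poly(A)-binding protein gene Pabpc1 had 378 ± 12.0 and 389 ± 10.5 FPKM (0.04), with −0.01 after TPM rescaling and −0.08 after quantile normalization.

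Of 15 genes for decapping, deadenylation and exonuclease decay, 8 were higher and 7 lower, with a median of 0.01 (−0.04 after TPM rescaling, with 5 higher and 10 lower). After that rescaling 8268 of the 12922 genes tested were lower. Cnot1, the scaffold of the main deadenylase, had 46.7, 50.6 and 50.0 FPKM in Control and 40.8, 39.1 and 36.2 in ISRIB. Every ISRIB library was below every Control library, and the log2 fold change was −0.34 (SE 0.0568, 95% interval −0.47 to −0.21, adjusted p = 0.0876). With voom on the recovered reads Cnot1 passed (−0.35, adjusted p = 0.0259, where its range over all alternatives was 0.0259 to 0.293). Cnot7, a catalytic subunit of the same complex, had 20.6, 20.9 and 19.8 FPKM in Control and 22.2, 22.7 and 23.5 in ISRIB (0.15, adjusted p = 0.178). Xrn1, the exonuclease that degrades decapped mRNA, had −0.19 and Edc4, an enhancer of decapping, −0.12, both with all ISRIB libraries below Control (adjusted p = 0.222 and 0.295). Xrn1 has an implied length of 13375 bases and had −0.12 after length correction.

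Transcripts known as NMD substrates were mostly higher in ISRIB, with 21 of 24 positive values, a median of 0.17 and 0 past the test. Like the other lists, this list was chosen with earlier results of these data known, so its counts are a description. TPM rescaling left 19 of 24 positive and a median of 0.12. At an unadjusted p under 0.05, 9 were higher, where 8.71% of genes tested were, and 1 was lower, where 7.73% were. The 7 noncoding hosts of small nucleolar RNAs, whose spliced RNAs are degraded by NMD, were all higher, with a median of 0.44, and in 5 of them the lowest ISRIB library was above the highest Control library, where 10.8% of genes tested had this. Their median was 0.38 after TPM rescaling, which moved the median of all genes tested from 0.01 to −0.05, and 0.3 after length correction. These genes are short, with a median implied length of 628 bases. Gas5 had 126, 118 and 136 FPKM in Control and 177, 176 and 189 in ISRIB, Snhg12 32.3, 31.9 and 32.6 and 44.8, 43.6 and 50.7. Both stood at 0.51 on the log2 fold change scale with an adjusted p of 0.0608, and they passed in voom (adjusted p = 0.0189 and 0.0297). After length correction both had 0.4 (adjusted p = 0.0948 and 0.148). Over all alternatives the adjusted p reached 0.279 for both. Snhg1 had 57.4, 55.9 and 62.6 FPKM in Control and 76.8, 72.0 and 90.4 in ISRIB (0.44, adjusted p = 0.0995).

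The other 17 substrates, protein-coding genes of the stress response and of splicing, had a median of 0.13, 14 higher and 3 lower. Srsf7, a splicing factor with a poison exon that sends its mRNA to NMD, had 49.8, 50.6 and 51.5 FPKM in Control and 56.3, 59.9 and 57.7 in ISRIB, with no overlap (0.19, adjusted p = 0.111). All ISRIB libraries were above all Control libraries for 6 of the 17 and below them for 1, where 10.8% and 12.0% of genes tested were. The genes that follow were chosen after their values were seen. Ddit3, the stress-induced transcription factor CHOP, had 7.09, 9.38 and 8.2 FPKM in Control and 11.3, 11.7 and 10.6 in ISRIB, with no overlap (log2 fold change 0.43, adjusted p = 0.119). The 3 lower genes were Chac1, Slc7a11 (−0.14) and Ern1 (−0.01). Chac1, which degrades glutathione, had 6.83, 8.58 and 8.7 FPKM in Control and 5.36, 5.95 and 6.16 in ISRIB, also with no overlap (−0.43, adjusted p = 0.119). In some other stress genes a single library, ISRIB replicate 1, stood apart. Gadd45a had 14.5, 17.5 and 15.4 FPKM in Control and 24.8, 16.5 and 15.8 in ISRIB, and Cdkn1a 16.6, 17.1 and 14.0 and 24.1, 13.6 and 13.0, with ISRIB replicate 1 above the rest in both (adjusted p = 0.499 and 0.952). Gadd45b had 12.9, 13.1 and 13.0 FPKM in Control and 18.0, 13.7 and 14.1 in ISRIB (adjusted p = 0.321). Atf4 had 118, 143 and 131 FPKM in Control and 183, 144 and 138 in ISRIB (adjusted p = 0.334). Both were again highest in ISRIB replicate 1. In the same library the NMD factors showed no such step, with a median deviation from their 6-library means of −0.057 on the log2 scale, between those of ISRIB replicates 2 (0.027) and 3 (−0.09). Full-length and NMD-sensitive isoforms of the coding genes are summed in these values.

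Searching 9011 genes with a mean of at least 5 FPKM for the pattern most like a member over the 6 libraries, Smg8 was closest to Rbm12 (Pearson r 0.9892), Trap1 (0.9885) and Tex2 (0.9856). Upf1 was closest to Ccdc88a (0.993), Nfrkb (0.9825) and Otud5 (0.9799). With 6 points from the same libraries these values describe likeness only.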

How the data were processed

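Total RNA of cultured mouse ovary was sequenced in 3 Control and 3 ISRIB libraries. The authors deposited FPKM per gene and library, with replicates not pooled. Per the submitters' processing notes, fastp, HISAT2, HTSeq, R 3.2.0, DESeq2 and the build mm10 were used, without roles or order. The annotation, strand setting and scaling total are not given in the sources used. No label says that replicates came from separate animals or cultures, so p-values reflect only the spread among these samples, possibly technical.

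Whole reads were recovered from the FPKM as a library factor times a gene factor. All 26329 genes came out whole (100.0%, tolerance 0.01 read). On simulated reads, 98.06% of 2633 genes were recovered exactly. The gene factor gave the implied length.

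Groups came from sample titles. Because FPKM are not counts, limma 3.58.1 (R 4.3.3) was run on log2(FPKM + 0.5) with 2 groups and an intensity trend, over the 12922 genes whose mean FPKM reached 1. Tests were two-sided, with Benjamini-Hochberg adjustment over all of them and a threshold of 0.05. The scale understates changes of low genes. In data simulated for this comparison over the 12922 genes, 86 of 100 genes changed by 0.5 (log2) and 96 of 100 changed by 1 were called, with 8 unchanged genes called. The simulated noise was normal and independent between genes, unlike that of real libraries. Changes as small as those of the members were not simulated, so these counts give no power for them.

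As alternatives, the pseudocount was set to 0.1 or 1 and the filter dropped or raised to 5 FPKM. Others were TPM rescaling, quantile normalization, removal of a loess trend on length (span 0.5), voom on the recovered reads, a replicate block and leaving out each library. Positions came from GENCODE M21 (GRCm38, the build mm10), and promoters, found for 9 of 9 members, from RefSeq. Named genes are the members, the up to 4 of each list with the smallest p, and the 3 most like Smg8, which had the smallest p of the members, and Upf1, leaving out predicted and clone names. Ddit3, Chac1, Slc7a11, Ern1, Gadd45a, Gadd45b, Atf4 and Cdkn1a fall outside this rule and were chosen after their values were seen. Atr is named only as one of its family. The members and lists were chosen with earlier results of these data known. A gene of the cofactor list is not reported here. Not every marker list is printed. Figures were drawn with matplotlib 3.10.9 in Python 3.11.15.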

Additional observations from a re-analysis of the deposited data

How the results depend on the processing

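The 0 of 9 members past the threshold held under all 15 alternatives, and the members' log2 fold changes kept their sign in 130 of 135 recalculations. The 5 others were all for Upf3a, at −0.05 after TPM rescaling, −0.00 after quantile normalization, −0.02 after length correction, and −0.01 and −0.02 without ISRIB replicates 2 and 3 (its range over the left-out libraries was −0.02 to 0.05). The members' median of −0.07 moved to −0.12 with TPM rescaling and was −0.08 to −0.06 when single libraries were left out. Over all genes, 0 passed, against 8 with a mean FPKM of at least 5, 120 in voom and 11 with the replicate block, which changed no call for a member at the adjusted threshold. At an unadjusted p under 0.05 the count of members went from 1 to 0 with the block and was 0 to 2 when single libraries were left out. Same-numbered libraries had correlations of their deviations from the group means of −0.19, −0.091 and 0.192. With 3 libraries per group these values cannot show whether the numbers pair the samples, and the labels do not say. Over all genes, 2125 had an unadjusted p under 0.05. The cause of these differences was not tested, except that the filter tests fewer genes (9167). Among the other named genes, 350 of 359 recalculations kept sign and side of the threshold. In 6 the gene passed the test, Cnot1 in voom, Gas5 and Snhg12 with the stricter filter (adjusted p = 0.0412 for both) and in voom, and Gas5 with the block (adjusted p = 0.0245). In the other 3 the sign turned, for Pabpc1 with TPM rescaling (−0.01) and quantile normalization (−0.08) and for Gspt2 without Control replicate 1 (0.04; −0.17 to 0.04 over the left-out libraries). The difference in the log2 ratio of Upf3b to Upf3a was 0.02 to 0.15 when single libraries were left out. Each member had at least 995 reads in a library, and groups of 3 libraries limit the precision of the intervals.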
